A study of Homo sapiens with 5 samples.

Results

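The core spliceosome proteins examined here are the Sm and LSm ring proteins, the U1 and U2 snRNP proteins, the SF3A and SF3B complexes, the U2AF heterodimer and the PRPF factors. Members were the rows of the footprint count table whose symbol starts with SNRP, SF3A, SF3B or PRPF, or is LSM2 to LSM8, U2AF1 or U2AF2. This rule found 39 genes among 13638 rows, and all 39 passed the filter on low counts. SNRPB2, LSM2, PRPF8 and PRPF31 were not analysed here, and SNRNP70 and SNRNP200, whose symbols start differently, are described with the other splicing genes.

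The cells were HAP1, a human line of leukaemic origin with a near-haploid chromosome set. Wild-type cells gave 2 libraries and ZCCHC4 knockout cells gave 3, and ZCCHC4 is named by the series as the enzyme that places m6A on 28S rRNA. Each library holds ribosome footprints, the mRNA fragments shielded by ribosomes from RNase I, after lysis of both genotypes in cycloheximide. The question put to each gene is whether its portion of the footprints differs between the genotypes. A footprint share moves with mRNA amount as well as with translation, which cannot be told apart here, nor can fewer cells be told from less RNA per cell. The labels give no drug, no time course and no statement that the libraries are separate cultures or that the knockout is more than 1 clone, so p-values reflect a spread that may be no more than technical.

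The spliceosome removes introns from pre-mRNA and is built from small nuclear ribonucleoproteins, or snRNPs. In U1, U2, U4 and U5 a ring of Sm proteins closes around the snRNA, while U6 carries a related ring of LSm proteins. U1 recognises the 5′ splice site. U2AF and the SF3A and SF3B complexes of U2 recognise the branch point and the 3′ end of the intron, and the U4/U6.U5 tri-snRNP and PRPF19 complex then join to form the catalytic core.

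Wild-type libraries held 5302160 and 4887380 counts, and knockout libraries between 16940732 and 31557573, so depth and genotype moved together. The wild-type libraries differed from each other by little more than counting noise: chi-square per degree of freedom, which is 1 for counting noise alone, was 1.14. It was 3.22 between knockout replicates 1 and 3 and 31.4 and 27.9 between knockout replicate 2 and those. ZCCHC4 itself had 93 and 71 counts (wild type) against 105, 55 and 147 (knockout), or 16.0 and 13.3 against 3.85, 3.41 and 4.98 in CPM, the usual depth-scaled count, here with TMM factors. Over 11205 genes tested with edgeR, 60.0% passed an adjusted p of 0.05, 30.2% higher and 29.8% lower in the knockout. For 76.4% of genes every knockout library lay on 1 side of both wild-type libraries. Scaling by library totals alone moved the median log2 change over all genes from 0.02 to -0.20 and the split of calls from 3380 higher and 3341 lower to 2391 and 4564. Of the blood-cell markers, CD34 had 2 counts in each wild-type library and 0 in the knockout, and CD33 had 0 counts in wild type and 1 in each knockout library. VIM, a filament protein of adherent cells, rose from 123 and 141 CPM to 496, 532 and 505 CPM. PTPRC, GATA1, SPI1 and MPO were not analysed here.

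Core spliceosome genes moved in both directions. Of the 39 members, 19 were higher in the knockout, 8 were lower and 12 did not pass edgeR's test. That is 48.7% higher and 20.5% lower, beside 30.2% and 29.8% of all genes, and 69.2% called in either direction beside 60.0%. The median log2 fold change of the members was 0.25, beside 0.02 over all genes tested. In 29 members (74.4%) the genotypes did not overlap, a share close to the 76.4% of all genes. Changes were small: 2 of the 27 called members, SNRPN and SF3B5, changed at least 2-fold, and the median size among called members was 1.47-fold, beside 1.76-fold over all called genes. Scaling by library totals gave 12 members higher and 12 lower, with a median of 0.03, so that rises no longer outnumbered falls. Over all genes that scaling gave 2391 higher and 4564 lower, with a median of -0.20. With the wild-type libraries summed, and knockout replicates 1 and 3 summed, the calls were 14 higher and 4 lower. The 9 members that then no longer passed were SNRPD1 (edgeR adjusted p = 0.227), SF3A1, SF3A2, SF3A3, SF3B1 (0.318), SF3B2 (0.263), U2AF1, PRPF6 (0.371) and PRPF39 (0.149). Without wild-type replicate 1 the members' median was 0.24, beside 0.03 over all genes. Without wild-type replicate 2 it was 0.26, beside 0.02. Fewer members passed in both fits. As in the summed fit, 1 wild-type library was left there, and fewer of all genes passed too.

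**Figure D1:**
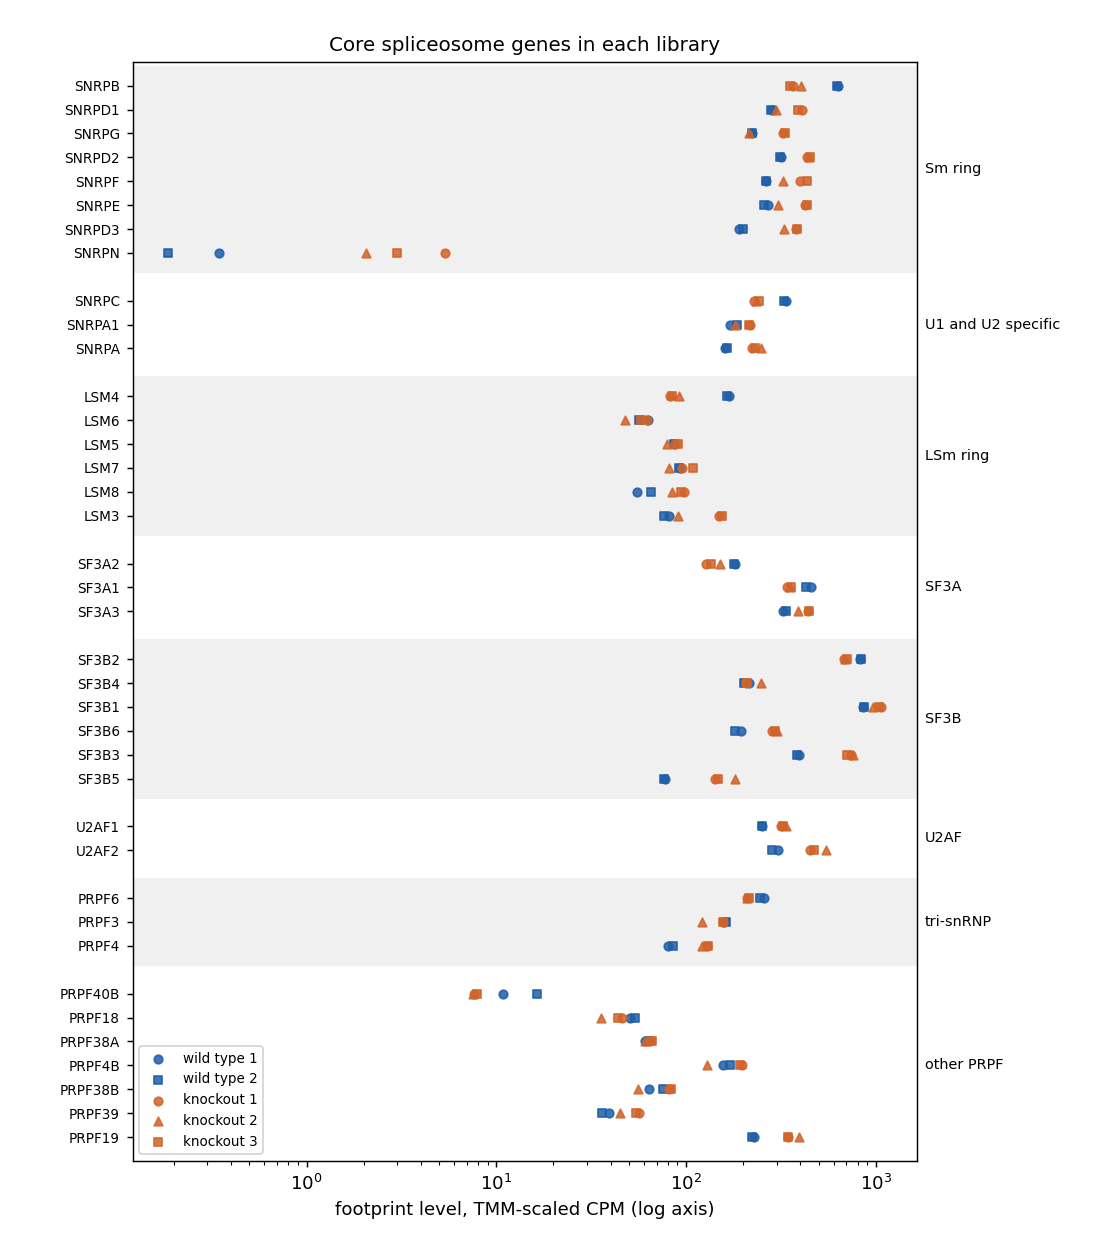
Footprint level of 38 of the 39 members in each library, in TMM-scaled CPM on a log axis, with members grouped by role and 1 marker per library (blue for wild type, orange for knockout). SNRPB, SNRPC and LSM4 lie to the left in all 3 knockout libraries, SNRPD3, SF3B3 and SF3B5 lie to the right, and knockout replicate 2 (triangles) often sits apart from the other knockout libraries.

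Coding length went with the direction of change. Among the 512 tested genes with coding sequences under 400 bases, 42.0% were higher and 22.3% lower, with a median log2 fold change of 0.24. Among the 3478 genes of at least 2000 bases, 23.3% were higher and 37.8% lower, with a median of -0.15. Of the 39 members, 13 had coding sequences under 400 bases, all of them Sm, LSm or SF3B proteins, and 9 of these rose and 4 did not pass (median 0.54). The 10 members of at least 2000 bases gave 3 rises, 4 falls and 3 that did not pass (median -0.04). A spline of the log2 fold change over coding length, GC and footprint level, fitted to all genes, left the members a median of -0.04. The value from this spline is given beside the single results below where it differs in sign or by more than 1.5 times. It is called the length fit there, although GC and footprint level enter it as well. How much of a shift came from each of these was not separated.

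**Figure D2:**
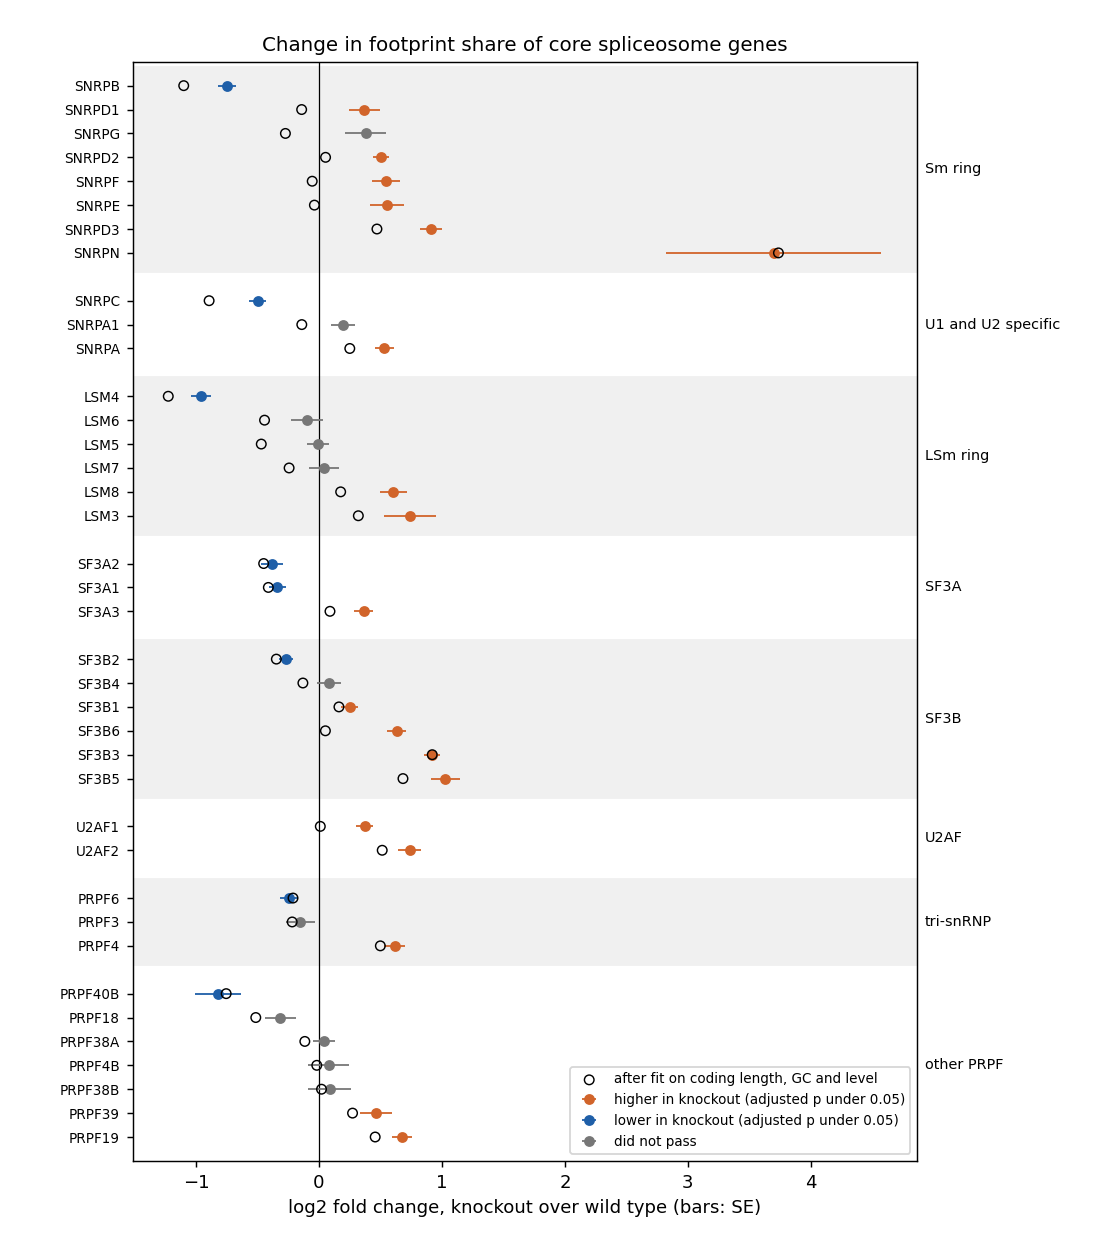
Log2 fold change of 38 of the 39 members, knockout over wild type, with bars of 1 SE and colour for the edgeR call. Open circles give the value after the spline on coding length, GC and level, which leaves SNRPB at -1.10, LSM4 at -1.23 and SF3B3 at 0.92 and brings SNRPE, SNRPF and SNRPD2 to within 0.06 of 0.

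The Sm proteins form the ring that all Sm-class snRNAs share, and SNRPB moved against its partners. Of the 8 Sm genes, 6 rose (75%, beside 30.2% of all genes), SNRPB fell and SNRPG did not pass. Their median was 0.52, and -0.05 after the length fit. SNRPB, which encodes SmB, was at 633 and 625 CPM (wild type) against 367, 403 and 354 CPM (knockout). The 3 knockout values were all lower, and the groups did not overlap. Means were 629 ± 6.29 CPM (SD, n = 2) and 375 ± 25.3 CPM (SD, n = 3). On the log2 scale the change was -0.75 ± 0.07 (SE; edgeR adjusted p = 3.26e-05), or 1.68-fold lower. SNRPD3 encodes SmD3, the protein that enters the ring as a dimer with SmB. It was at 190 and 199 CPM (wild type) against 379, 329 and 385 CPM (knockout), without overlap. Its log2 fold change was 0.91 ± 0.09 (adjusted p = 3.37e-05), or 1.88-fold higher, and 0.47 after the length fit.

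The SmD1 and SmD2 pair and the SmE, SmF and SmG trio, which form the other intermediates of ring assembly, were higher or did not pass. SNRPD2 was at 315 and 311 CPM (wild type) against 435, 444 and 452 CPM (knockout), a log2 difference of 0.50 ± 0.06 (adjusted p = 1.70e-04) with little spread in either genotype. SNRPF was at 265 and 265 CPM (wild type) against 401, 325 and 432 CPM (knockout), with a log2 change of 0.54 ± 0.11 (adjusted p = 0.00282). SNRPE was at 271 and 257 CPM (wild type) against 421, 306 and 433 CPM (knockout), with a log2 change of 0.55 ± 0.14 (adjusted p = 0.00737). In both, knockout replicate 2 lay between wild type and the other knockout libraries. SNRPD1 was at 284 and 281 CPM (wild type) against 409, 297 and 386 CPM (knockout), with a log2 change of 0.37 ± 0.13 (adjusted p = 0.0304). SNRPG was at 223 and 223 CPM (wild type) against 324, 214 and 332 CPM (knockout), so that knockout replicate 2 lay below wild type and the groups overlapped (0.38 ± 0.17, adjusted p = 0.0774). After the length fit SNRPD2 was at 0.05, SNRPF at -0.05, SNRPE at -0.04, SNRPD1 at -0.14 and SNRPG at -0.27.

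Some of these calls changed when a library was left out. Without wild-type replicate 1 the log2 change was 0.37 for SNRPD1 and 0.59 for SNRPE, close to the main fit. Without knockout replicate 2, SNRPG passed at 0.55 (adjusted p = 1.24e-19). Without wild-type replicate 1 the adjusted p was 0.0568 for SNRPE, and without wild-type replicate 2 it was 0.0834. SNRPD1 lost its call when any 1 of 4 libraries was left out, at 0.152 and 0.163 without wild-type replicates 1 and 2 and at 0.0694 and 0.0573 without knockout replicates 1 and 3. Under library totals SNRPD1 was at 0.15 (adjusted p = 0.305) and SNRPE at 0.33 (0.0543). SNRPB, SNRPD2, SNRPD3 and SNRPF kept their call and direction in all 14 alternative tests.

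Footprints of 28 to 32 bases from Sm genes can match other loci, so the coding sequences were compared with all GENCODE transcripts of other genes in windows of 30 bases. Shared windows made up 94.1% of the SNRPG coding sequence, 91.6% of SNRPE, 60.1% of SNRPD1 and 40.1% of SNRPF, mostly in processed pseudogenes, and 13.4% of SNRPD2. SNRPD3 shared no window, and SNRPB shared 18.6%, nearly all with a readthrough transcript of its own locus. How the authors placed reads with several matches is not given in the sources used here, and the part of shared windows in these levels was not tested. Over all members, the 16 with no shared window gave 9 rises, 5 falls and 2 that did not pass (median 0.36). The 23 with some gave 10, 3 and 10 (median 0.24). These sets were not matched for coding length. Windows were not compared for genes outside the members, so no share over all genes stands beside these counts. The SNRPG coding sequence (GRCh38, gene on chromosome 2, minus strand) is printed to show how far window sharing goes. Capitals mark the 3 of 231 bases that lie in no shared window, which are the stop codon.
SNRPG: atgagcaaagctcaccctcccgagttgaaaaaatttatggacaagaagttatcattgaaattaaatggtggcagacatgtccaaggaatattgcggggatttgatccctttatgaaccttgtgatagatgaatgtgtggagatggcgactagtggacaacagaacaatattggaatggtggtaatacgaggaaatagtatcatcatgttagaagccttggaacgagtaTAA

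SNRPN encodes SmN, a close relative that takes the place of SmB, mainly in brain, and it was close to absent in wild type. Its counts were 2 and 1 (wild type) against 147, 33 and 88 (knockout), or 0.345 and 0.187 against 5.39, 2.04 and 2.98 CPM. The knockout libraries were higher and did not overlap with wild type, though knockout replicate 1 was well above replicate 2. The ratio of summed counts, scaled by library size, was 13.7 (exact 95% binomial interval 4.62 to 66.7, counting error only), and the edgeR adjusted p was 0.00539. Without wild-type replicate 1 or 2 it no longer passed (0.0534 and 0.0625). At 3.47 CPM in the knockout, SNRPN stood far below SNRPB at 375 CPM, a gene of equal coding length.

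The coding sequences of SNRPB (GRCh38 chromosome 20, 2461634 to 2470853, minus strand) and SNRPN (chromosome 15, 24823647 to 24978582, plus strand) were aligned without gaps to see whether footprints of the pair could be confused. Both have 723 bases, of which 594 (82.2%) are identical, and the differences are spread so evenly that 3 of 694 windows of 30 bases (0.432%) are shared. SNRPN shared most of its windows with SNURF, which is read from the same locus. The first 120 coding bases, with the 14 differing positions in capitals, show this spacing.
SNRPB: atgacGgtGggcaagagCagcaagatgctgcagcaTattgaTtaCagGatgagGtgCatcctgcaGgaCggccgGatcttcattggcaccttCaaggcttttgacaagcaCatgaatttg
SNRPN: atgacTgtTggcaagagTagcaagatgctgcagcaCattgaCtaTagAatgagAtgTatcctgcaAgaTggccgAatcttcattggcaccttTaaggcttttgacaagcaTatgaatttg
The last 90 coding bases, which encode the end of the proline-rich tail and the stop codon, differ at 16 positions.
SNRPB: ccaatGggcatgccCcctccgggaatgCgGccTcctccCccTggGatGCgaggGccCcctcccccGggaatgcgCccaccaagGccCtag
SNRPN: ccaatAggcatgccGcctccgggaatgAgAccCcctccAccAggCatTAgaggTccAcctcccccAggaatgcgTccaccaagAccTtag

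Since each ring holds 1 copy of each Sm protein, levels were also compared per coding length, as CPM per kilobase of coding sequence. In wild type the 7 ring proteins other than SNRPN spanned 1.99-fold on this scale, from SNRPD3 at 510 ± 16.9 to SNRPF at 1014 ± 0.868 CPM per kilobase (SD, n = 2). SNRPB, at 870 ± 8.69, did not differ beyond the spread from SNRPD2 at 877 ± 6.71. In the knockout the span was 2.85-fold. SNRPB was lowest at 519 ± 35.0 and SNRPF highest at 1477 ± 211 CPM per kilobase (SD, n = 3). The knockout levels of SNRPD3 (956 ± 81.6) and SNRPD1 (1012 ± 166) did not differ beyond their spread, nor did those of SNRPD2 (1243 ± 24.4), SNRPG (1256 ± 285), SNRPE (1386 ± 252) and SNRPF. Footprints near start codons weigh more in short coding sequences, and the table does not separate them.

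**Figure D3:**
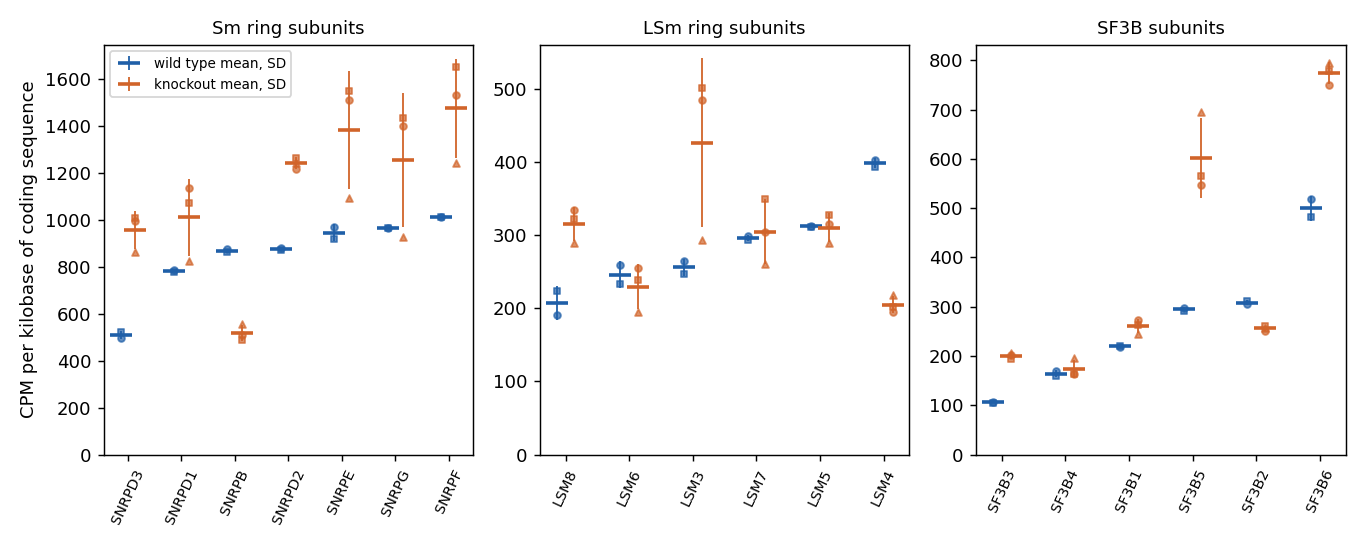
CPM per kilobase of coding sequence for subunits of the Sm ring, the LSm ring and SF3B, ordered by their wild-type level, with the mean and SD of each genotype and a point per library. SNRPB and LSM4 pass from the middle and the top of their rings in wild type (870 and 398) to the bottom in the knockout (519 and 205), and SF3B3 rises from 106 to 201.

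Ratios of raw counts within a library do not depend on scaling between libraries, and partner pairs chosen after their values were seen were compared this way. The SNRPB to SNRPD3 ratio was 3.34 and 3.14 (wild type) against 0.968, 1.23 and 0.920 (knockout), a 3.12-fold difference of the means without overlap. Inside the other Sm intermediates SNRPD1 was compared with SNRPD2 and SNRPF with SNRPE, and no ratio with SNRPG was taken. SNRPD1 to SNRPD2 was 0.901 and 0.902 (wild type) against 0.942, 0.668 and 0.855 (knockout). SNRPF to SNRPE was 0.976 and 1.03 (wild type) against 0.951, 1.06 and 0.997 (knockout). These groups overlapped. With 2 and 3 libraries an exact permutation test of a ratio cannot reach 0.05, so none is given.

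**Figure D4:**
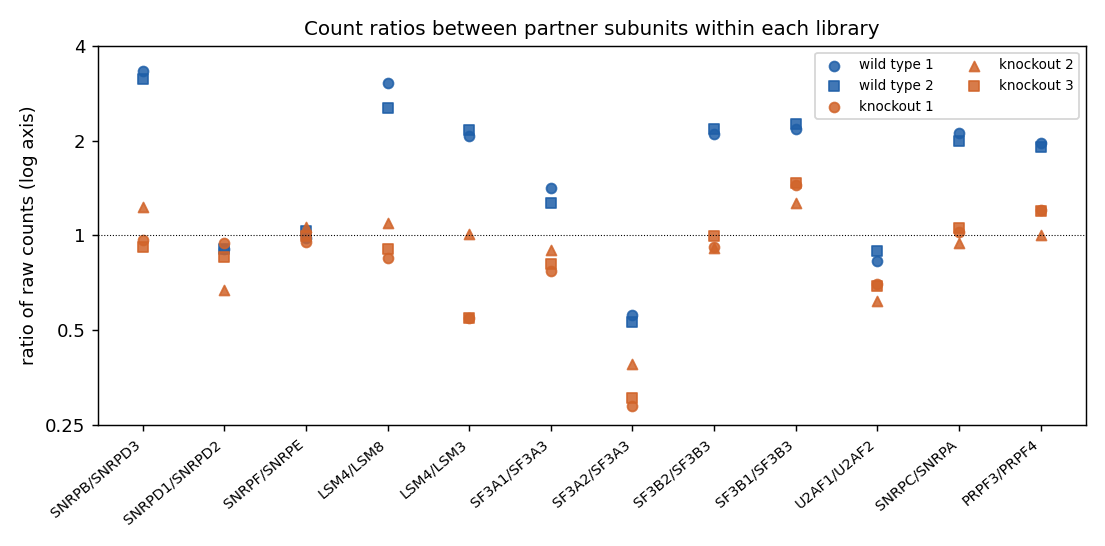
Ratio of raw counts between partner subunits in each library, on a log axis with a dotted line at equal counts. Wild-type and knockout libraries separate for SNRPB/SNRPD3, LSM4/LSM8, LSM4/LSM3, SF3B2/SF3B3 and SNRPC/SNRPA, each with a difference of over 2-fold. They overlap for SNRPD1/SNRPD2 and SNRPF/SNRPE, and the remaining pairs separate by less than 2-fold. Pairs were chosen after their values were seen, and other gene pairs were not compared.

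The proteins particular to U1 split in the same manner. SNRPC encodes a U1 protein that steadies the pairing of U1 with the 5′ splice site. It was at 337 and 328 CPM (wild type) against 228, 234 and 243 CPM (knockout), a fall of 1.41-fold without overlap (-0.50 ± 0.07, adjusted p = 2.39e-04) and -0.89 after the length fit. SNRPA encodes a U1 protein that binds a stem-loop of U1 snRNA. It was at 160 and 165 CPM (wild type) against 223, 248 and 231 CPM (knockout), with a log2 change of 0.53 ± 0.08 (adjusted p = 3.88e-04), and at 0.25 after the length fit. The SNRPC to SNRPA count ratio was 2.11 and 1.99 in wild type and between 0.944 and 1.05 in the knockout. SNRNP70, the third U1 protein and not a member by its symbol, rose from 117 and 125 CPM to 265, 315 and 277 CPM (1.23 ± 0.10, adjusted p = 8.84e-06). The U2 protein SNRPA1 overlapped between genotypes at 170 and 186 against 216, 181 and 214 CPM (0.20 ± 0.10, adjusted p = 0.113). It was at -0.14 after the length fit, and passed without knockout replicate 2 (0.27, adjusted p = 5.18e-07), and 76.2% of its windows are shared with other transcripts, mostly of a processed pseudogene.

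The LSm proteins of the U6 ring showed a fall of LSM4 beside rises of LSM3 and LSM8. LSM8 is the subunit that sets the nuclear ring apart from the cytoplasmic LSM1 ring of mRNA decay, whereas LSM3 to LSM7 belong to both. LSM4 was at 169 and 165 CPM (wild type) against 82.0, 91.6 and 84.6 CPM (knockout), 1.94-fold lower without overlap (-0.96 ± 0.08, adjusted p = 1.55e-05). LSM8 was at 55.4 and 65.2 CPM (wild type) against 97.1, 83.9 and 93.6 CPM (knockout), with a log2 change of 0.61 ± 0.11 (adjusted p = 0.00117), and at 0.18 after the length fit. LSM3 was at 81.6 and 76.4 CPM (wild type) against 150, 90.5 and 155 CPM (knockout), where replicate 2 lay close to wild type (0.74 ± 0.21, adjusted p = 0.0134, and 0.32 after the length fit). It no longer passed without wild-type replicate 1 (0.0806) or 2 (0.111), or with library totals (0.0512).

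The remaining LSm genes did not pass. LSM5 was at -0.01 ± 0.09 (adjusted p = 0.949), LSM7 at 0.04 ± 0.12 (0.789) and LSM6 at -0.10 ± 0.13 (0.530) on the log2 scale, and their libraries overlapped. LSM7 passed without knockout replicate 2 (0.14, adjusted p = 0.0412). With library totals LSM5 (-0.23, adjusted p = 0.0435) and LSM6 (-0.32, adjusted p = 0.0479) passed as lower. After the length fit LSM5, LSM6 and LSM7 were at -0.47, -0.44 and -0.24. LSM1, the cytoplasmic counterpart of LSM8, named outside the rule for other lists after its values were seen, was at 44.8 and 43.7 CPM (wild type) against 38.0, 36.1 and 41.2 CPM (knockout), with a log2 change of -0.20 ± 0.10 (adjusted p = 0.116), and at -0.44 after the length fit.

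Per coding length the order of the LSm ring changed. In wild type the 6 subunits spanned 1.92-fold, from LSM8 at 207 ± 23.8 to LSM4 at 398 ± 6.74 CPM per kilobase (SD, n = 2). In the knockout LSM4 was lowest at 205 ± 11.8 and LSM3 highest at 426 ± 116 CPM per kilobase (SD, n = 3). LSM4 and LSM6 (229 ± 30.8) did not differ beyond their spread there, nor did LSM7 (304 ± 44.4), LSM5 (310 ± 19.7) and LSM8 (315 ± 23.4). The LSM4 to LSM8 count ratio was 3.05 and 2.53 (wild type) against 0.845, 1.09 and 0.903 (knockout).

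SF3A is the U2 subcomplex that ties SF3B to the core of the snRNP, and its subunits divided. SF3A1 was at 457 and 426 CPM (wild type) against 338, 351 and 358 CPM (knockout), with a log2 change of -0.34 ± 0.07 (adjusted p = 0.00225). SF3A2 was at 180 and 178 CPM (wild type) against 127, 151 and 135 CPM (knockout), with a log2 change of -0.38 ± 0.09 (adjusted p = 0.00566). SF3A3 was at 324 and 337 CPM (wild type) against 441, 390 and 443 CPM (knockout), with a log2 change of 0.36 ± 0.08 (adjusted p = 0.00344), and at 0.09 after the length fit. None of the 3 overlapped between genotypes, and neither did 76.4% of all genes tested. The calls were lost without wild-type replicate 1, where 1 wild-type library was left. The log2 changes were then -0.29 for SF3A1, -0.38 for SF3A2 and 0.34 for SF3A3. Without wild-type replicate 2 SF3A2 also lost its call, at a log2 change of -0.39. With library totals SF3A3 did not pass (0.14, adjusted p = 0.119). With near-identical libraries summed the adjusted p values were 0.170 for SF3A1, 0.200 for SF3A2 and 0.166 for SF3A3. The SF3A1 to SF3A3 count ratio was 1.41 and 1.26 (wild type) against 0.767, 0.899 and 0.807 (knockout).

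SF3B holds the branch point adenosine of the intron. Of its 6 subunits covered by the symbol rule, 4 rose (66.7%, beside 30.2% of all genes), SF3B2 fell and SF3B4 did not pass. The median of these 6, 0.44, became 0.11 after the length fit. PHF5A, a further SF3B subunit named after its value was seen, is counted with the other snRNP proteins. It did not pass (0.19 ± 0.09, adjusted p = 0.105) and was at -0.13 after the length fit. SF3B3, a large scaffold of repeated propeller domains, was at 391 and 385 CPM (wild type) against 739, 756 and 707 CPM (knockout). The rise was 1.89-fold, from 388 ± 4.56 to 734 ± 24.9 CPM (0.92 ± 0.07, adjusted p = 5.42e-06), and stayed at 0.92 after the length fit although the coding sequence has 3654 bases. SF3B5, a small single-exon gene (GRCh38 chromosome 6, 144094881 to 144095573, minus strand), was at 77.8 and 76.2 CPM (wild type) against 143, 182 and 147 CPM (knockout). That rise was 2.04-fold (1.03 ± 0.12, adjusted p = 9.18e-05), and 0.68 after the length fit. Neither gene overlapped between genotypes, which also held for 76.4% of all genes tested.

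The other SF3B subunits moved less. SF3B6, which touches the branch point region, was at 196 and 182 CPM (wild type) against 283, 300 and 294 CPM (knockout), with a log2 change of 0.63 ± 0.07 (adjusted p = 0.0001), but at 0.05 after the length fit. SF3B1, the subunit that encloses the branch point and is mutated in several blood cancers, was at 853 and 866 CPM (wild type) against 1070, 960 and 1033 CPM (knockout), with a log2 change of 0.25 ± 0.07 (adjusted p = 0.00984, and 0.16 after the length fit). SF3B1 no longer passed without wild-type replicate 1 (0.112) or 2 (0.0867), under library totals (0.03, adjusted p = 0.690) and with the replicate number as a block (adjusted p = 0.0767). SF3B2 was at 821 and 838 CPM (wild type) against 676, 688 and 702 CPM (knockout), with a log2 change of -0.27 ± 0.06 (adjusted p = 0.00361), and at 0.0658 without wild-type replicate 2. SF3B4 was at 215 and 202 CPM (wild type) against 208, 249 and 209 CPM (knockout), with overlap (0.09 ± 0.10, adjusted p = 0.468), and at -0.13 after the length fit.

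On the scale of CPM per kilobase, SF3B subunits covered a wider range than ring proteins. In wild type they ran from SF3B3 at 106 ± 1.25 to SF3B6 at 500 ± 25.7 (SD, n = 2), and in the knockout from SF3B4 at 174 ± 18.5 to SF3B6 at 774 ± 23.0 (SD, n = 3). The scaffold pair came closer together, with SF3B1 at 220 ± 2.46 and SF3B3 at 106 in wild type and at 261 ± 14.3 and 201 ± 6.82 CPM per kilobase in the knockout. The SF3B1 to SF3B3 count ratio was 2.18 and 2.25 (wild type) against 1.45, 1.27 and 1.46 (knockout). The SF3B2 to SF3B3 ratio fell from 2.10 and 2.18 to 0.915, 0.910 and 0.993.

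Both U2AF subunits rose, as did 30.2% of all genes. U2AF2 encodes U2AF65, which binds the pyrimidine tract, and was at 304 and 283 CPM (wild type) against 451, 545 and 471 CPM (knockout), with a log2 change of 0.74 ± 0.09 (adjusted p = 1.52e-04, and 0.51 after the length fit). U2AF1 encodes U2AF35, which reads the AG at the end of the intron. It was at 251 and 253 CPM (wild type) against 316, 338 and 324 CPM (knockout), with a log2 change of 0.37 ± 0.07 (adjusted p = 0.00147), but at 0.01 after the length fit and 0.15 with library totals (adjusted p = 0.0845). With near-identical libraries summed U2AF1 did not pass either (0.39, adjusted p = 0.117). All 694 of its windows are also in U2AF1L5, a copy of the gene in this annotation, so its counts are uncertain. Neither subunit overlapped between genotypes, which also held for 76.4% of all genes tested.

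In the tri-snRNP, PRPF4 rose while its partner PRPF3 did not pass. PRPF4 and PRPF3 bind each other on U4/U6. PRPF4 was at 80.4 and 85.3 CPM (wild type) against 130, 121 and 130 CPM (knockout), with a log2 change of 0.62 ± 0.08 (adjusted p = 2.36e-04). PRPF3 was at 158 and 163 CPM (wild type) against 156, 122 and 156 CPM (knockout), with a log2 change of -0.15 ± 0.11 (adjusted p = 0.282). PRPF6, which bridges U5 and U4/U6, was at 256 and 244 CPM (wild type) against 210.1, 210.5 and 213 CPM (knockout), with a log2 change of -0.24 ± 0.07 (adjusted p = 0.0134). PRPF6 no longer passed without wild-type replicate 1 (0.155) or 2 (0.0680) and with the replicate number as a block (0.117). Library totals brought PRPF3 past the threshold (-0.37, adjusted p = 0.0154).

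Of the 8 other PRPF genes, PRPF19 and PRPF39 rose, PRPF40B fell and 5 did not pass. The share called, 37.5%, was below the 60.0% of all genes. PRPF19, the ubiquitin ligase at the centre of the complex that activates the spliceosome, was at 228 and 222 CPM (wild type) against 344, 392 and 343 CPM (knockout), with a log2 change of 0.68 ± 0.08 (adjusted p = 1.32e-04, and 0.46 after the length fit). PRPF39, a U1-associated factor, was at 39.3 and 36.2 CPM (wild type) against 56.8, 44.6 and 54.6 CPM (knockout), with a log2 change of 0.46 ± 0.13 (adjusted p = 0.0123, and 0.27 after the length fit). It did not pass without wild-type replicate 1 (0.0608) or 2 (0.117). PRPF40B, a U1-associated factor, had 63 and 88 counts in wild type, or 10.9 and 16.4 CPM, and 7.66, 7.49 and 7.92 CPM in the knockout (-0.82 ± 0.19, adjusted p = 0.00445). It no longer passed without wild-type replicate 2 (-0.50, adjusted p = 0.0910).

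In PRPF4B, PRPF38B, PRPF18 and PRPF38A, which did not pass, knockout replicate 2 was below replicates 1 and 3. The kinase gene PRPF4B was at 156 and 171 CPM (wild type) against 197, 129 and 192 CPM (knockout), with a log2 change of 0.08 ± 0.17 (adjusted p = 0.695), and at 0.25 without replicate 2 (adjusted p = 5.90e-06). PRPF38B, at 0.09 ± 0.18 (0.685), also passed without it (0.25, adjusted p = 7.36e-04). PRPF18, a factor of the second catalytic step, was at 50.9 and 53.6 CPM (wild type) against 46.2, 35.6 and 43.6 CPM (knockout), with a log2 change of -0.32 ± 0.13 (adjusted p = 0.0549). It passed as lower with library totals (-0.54, adjusted p = 0.00421), with upper quartile factors (0.0215), with RLE size factors (0.0463) and with a mean count of at least 50 (0.0269). It also passed without knockout replicate 1 (0.0248) or 2 (0.00985). PRPF38A was at 0.04 ± 0.09 (adjusted p = 0.715). After the length fit PRPF4B was at -0.02, PRPF38B at 0.02, PRPF18 at -0.51 and PRPF38A at -0.11.

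Knockout replicate 2 was the lowest of the 3 knockout libraries for 23 of 39 members (59.0%), beside 43.0% of all genes tested. For the 13 members under 400 coding bases the median log2 ratio of replicate 2 to the mean of replicates 1 and 3 was -0.33, beside -0.09 for all genes of that length. It was 0.03 for the 8 members of 400 to 1000 bases, 0.05 for the 8 of 1000 to 2000 bases and -0.09 for the 10 of at least 2000 bases, beside 0.01, 0.01 and -0.01 for all genes of those lengths. The part of this library in the results was not tested beyond leaving it out. Without knockout replicate 2, 25 members were higher and 9 lower. Calls rose over all genes too, to 4164 higher and 4012 lower of 11161 tested, from 3380 and 3341 of 11205.

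Other splicing genes were taken from lists chosen by function, and differences between the lists were not tested. Of 23 further snRNP proteins and associated factors, 14 rose (60.9%, beside 30.2% of all genes), 3 fell (13.0%, beside 29.8%) and 6 did not pass. Their median of 0.34 became 0.11 after the length fit. With SD beside CPM (n = 2 and n = 3) and SE beside log2 changes, the U1-associated factor LUC7L rose from 30.1 ± 2.38 to 109 ± 4.35 CPM (1.86 ± 0.10), and the U5-associated CD2BP2 from 19.4 ± 1.34 to 60.3 ± 6.03 CPM (1.63 ± 0.13). SF1, which binds the branch point before U2 does, fell from 690.1 ± 15.2 to 444 ± 7.61 CPM (-0.64 ± 0.06, edgeR adjusted p = 2.84e-05). Across 14 alternative tests this list gave between 6 and 16 rises and between 2 and 5 falls, with 9 and 5 under library totals and 6 and 2 with near-identical libraries summed. Over all genes, library totals gave 2391 rises and 4564 falls, beside 3380 and 3341 in the main fit. The other falls of this list in the main fit, named after their values were seen, were TXNL4A (-0.53, and -0.87 after the length fit) and LUC7L2 (-0.82).

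Of 18 genes for snRNP assembly and import, 12 rose (66.7%, beside 30.2% of all genes), 5 did not pass and GEMIN8 fell (-0.32, and -0.50 after the length fit), named after its value was seen. Some of these factors load Sm proteins onto snRNA, and others act at other steps, such as import. WDR77, a cofactor of the methyltransferase that modifies Sm proteins, rose from 44.2 ± 2.47 to 128 ± 12.1 CPM (1.54 ± 0.11, edgeR adjusted p = 6.12e-06). CLNS1A, the chaperone pICln that holds Sm proteins before ring closure, rose from 144 ± 2.59 to 284 ± 32.6 CPM (0.98 ± 0.10, and 0.62 after the length fit). The SMN complex subunits GEMIN6 and GEMIN2 were at 1.26 ± 0.13 and 0.59 ± 0.09. The list median was 0.33, and 0.38 after the length fit. Under library totals 7 genes of this list rose, while rises over all genes went from 3380 to 2391. Rises were also fewer, in this list and over all genes, without wild-type replicate 1 or 2 and with near-identical libraries summed. The list median was then 0.34, 0.32 and 0.33.

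Of 21 genes of the PRPF19 complex and the catalytic stage, 8 fell (38.1%, beside 29.8% of all genes), 2 rose (9.52%, beside 30.2%) and 11 did not pass. The share called, 47.6%, was below the 60.0% of all genes, and the median of -0.13 became -0.33 after the length fit. CWC27, an isomerase-like protein, fell from 108 ± 1.56 to 55.1 ± 9.10 CPM (-0.97 ± 0.13). AQR, a helicase of the activated spliceosome, fell from 241 ± 5.05 to 160 ± 6.32 CPM (-0.59 ± 0.07). PLRG1, a core subunit of the PRPF19 complex, was at -0.44 ± 0.07, and -0.70 after the length fit, while PRPF19 itself rose. EIF4A3, which marks exon junctions, rose from 238 ± 4.17 to 403 ± 3.63 CPM (0.76 ± 0.07, edgeR adjusted p = 1.75e-05, and 0.46 after the length fit), and the other rise, named after its value was seen, was ISY1 (1.80 ± 0.30). Under library totals 14 genes of this list fell, while falls over all genes went from 3341 to 4564. Without wild-type replicate 1 or 2 the falls were fewer, in this list and over all genes, and the list median was -0.13 and -0.12. With near-identical libraries summed the falls were again fewer in both, the list median was -0.14, and PLRG1 did not pass.

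Of 10 genes of the minor spliceosome, which removes a rare class of introns, 4 fell (40%, beside 29.8% of all genes), 5 did not pass and SNRNP25 rose (0.66, and 0.35 after the length fit), named after its value was seen. The median of -0.42 became -0.58 after the length fit. SCNM1 fell from 62.5 ± 1.72 to 38.3 ± 1.86 CPM (-0.70 ± 0.09), PDCD7 from 58.3 ± 0.667 to 34.9 ± 3.19 CPM (-0.74 ± 0.11), ZMAT5 from 35.5 ± 2.11 to 21.1 ± 3.56 CPM (-0.76 ± 0.15) and ZCRB1 from 56.8 ± 0.880 to 31.4 ± 7.49 CPM (-0.84 ± 0.18). Across the alternatives 4 to 6 genes of this list fell. Among 7 other LSm-type genes, LSM12 (-0.37 ± 0.12, and -0.65 after the length fit) and PATL1 (-0.27 ± 0.09, and -0.17 after it), a partner of the cytoplasmic LSm ring, fell and 5 did not pass. That is 28.6% lower, beside 29.8% of all genes. Neither passed without wild-type replicate 1 (adjusted p = 0.153 and 0.194) or 2 (0.121 and 0.115), or with near-identical libraries summed (0.113 and 0.321), and PATL1 did not pass without knockout replicate 1 (0.0557) or 3 (0.0552), with the replicate number as a block (0.0976), with DESeq2 (0.0670) or without a filter (0.0767).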

How the data were processed

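Ribosome footprints were measured in 5 HAP1 libraries, grouped by genotype from the sample titles. Per the submitters' processing notes, Bowtie (no version) and hg38 were used. Which tool counted, with which annotation, and how duplicates and multiply matching reads were handled is not given in the sources used here. The deposited table holds raw whole-number counts per transcript, per the file headers and values, under a header line shifted by 1 cell. Transcripts were placed with GENCODE 29 (GRCh38), which also gave coding sequences and all printed sequences, and 113 rows had no coding length.

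Counts were fitted in R 4.3.3 with edgeR 4.0.16 (TMM, filterByExpr with a minimum count of 10, glmQLFit, glmQLFTest, genotype as the only term, Benjamini-Hochberg adjustment over 11205 rows, threshold 0.05). CPM are TMM-scaled. SE is the log2 fold change divided by the square root of F. The procedure was tested on simulated counts. Alternatives were other scalings and filters, DESeq2 1.42.0, a replicate block, single libraries left out, near-identical libraries summed, thinning to equal depth, and a spline fit (4 degrees of freedom each) on coding length, GC content and level. Members and lists were chosen with earlier results of these data known. Library values were printed for the member with the smallest adjusted p per role, the 6 largest rises and falls, and their partners, and up to 4 genes with the smallest adjusted p were named from each other list. Intervals cover counting error only, since PCR copies are not independent molecules. The values of 1 member are not reported here, although it is included in the counts.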

Additional observations from a re-analysis of the deposited data

How the results depend on the processing

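Of the 27 called members, 14 kept direction and call in all 14 alternative tests (11 of 19 rises and 3 of 8 falls). The falls were SNRPB, SNRPC and LSM4. The same share over all called genes was not computed, so 14 of 27 cannot be set against it. Scaling by library totals gave 12 members higher and 12 lower, with a median of 0.030, beside -0.20 over all genes. With near-identical libraries summed, 14 members were higher and 4 lower. Leaving out single libraries gave up to 25 higher and up to 9 lower, both without knockout replicate 2. Fewer members passed without a wild-type library, and so did fewer of all genes. After the spline on length, GC and level, the members' median was -0.037, and SNRPF, SNRPD1 and SNRPE turned to -0.055, -0.14 and -0.037. The cause of these shifts was not tested. Replicate numbers 1 and 2 occur in both genotypes, but same-numbered libraries did not deviate together (correlation of deviations -0.11 and -0.10 over 9522 genes). Deviations of the 2 wild-type libraries from their mean mirror each other by construction, so these values are not 2 separate checks. With a replicate block, 18 members were higher and 7 lower, and PRPF6 and SF3B1 lost their calls. Depth limits SNRPN, with 3 wild-type counts in all, and PRPF40B most. Thinning all libraries to the smallest total again gave 19 and 8.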
